A study of Mus musculus with 2 samples.

Results

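Stefins and cystatins are inhibitors of cysteine proteases, and 7 of their genes were examined in cultured mouse myeloid progenitors: the stefin A copies Stfa1, Stfa2, Stfa3 and Stfa2l1, the stefin B gene Cstb, and the cystatin genes Cst3 (cystatin C) and Cst7 (cystatin F). They were taken by exact symbol, a rule that uses no measured value, from a list drawn up with earlier results of these data known, and all 7 were found among the 23988 genes of the table. The data are RNA-seq values of 2 libraries of 1 group, here replicate 1 and replicate 2. Lineage-depleted (Lin-) bone marrow of C57BL/6 mice was kept for 7 days in a myeloid culture with IL3, SCF and IL6, and the cells are labelled as untransformed, with no treatment named. The series concerns leukaemia driven by HOXA9 and MEIS1, whose cells are not part of these values. The labels do not say whether the libraries came from separate animals or cultures, so the spread between them may be technical.

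Members of the family bind in the active site cleft of papain-like cathepsins and block it reversibly. Type 1 members, the stefins, are small proteins without a signal peptide that stay mostly in the cytosol, whereas type 2 members, the cystatins, carry a signal peptide and are secreted or sent to endosomes and lysosomes. In mice the stefin A genes form a cluster of copies on chromosome 16, and stefin A transcripts are abundant in maturing neutrophils. Cystatin C is made by most cells and strongly by macrophages and dendritic cells, and cystatin F is made mainly by immune cells and restrains cathepsin C, the activator of granule serine proteases.

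The coding sequences below are shown because the closeness of the copies bears on every stefin A value. Each line is a stretch of 60 bases from the longest protein-coding GENCODE vM21 transcript of the gene, and capitals mark the codons of the conserved loop that enters the protease cleft. The stretch covers bases 112 to 171 of the coding sequence for Stfa1 and Cstb, 130 to 189 for Stfa2, Stfa3 and Stfa2l1, 199 to 258 for Cst3 and 214 to 273 for Cst7. Stfa1, Stfa2, Stfa3 and Stfa2l1 lie on chromosome 16, Cst3 and Cst7 on chromosome 2 and Cstb on chromosome 10.
Stfa1: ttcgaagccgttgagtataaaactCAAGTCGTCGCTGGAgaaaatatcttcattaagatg
Stfa3: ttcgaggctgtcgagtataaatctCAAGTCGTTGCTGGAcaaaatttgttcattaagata
Stfa2: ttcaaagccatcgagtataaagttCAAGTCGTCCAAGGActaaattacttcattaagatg
Stfa2l1: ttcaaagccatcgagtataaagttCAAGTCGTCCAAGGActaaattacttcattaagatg
Cstb: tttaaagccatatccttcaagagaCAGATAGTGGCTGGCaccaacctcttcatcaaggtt
Cst3: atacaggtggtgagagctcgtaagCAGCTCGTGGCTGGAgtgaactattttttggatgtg
Cst7: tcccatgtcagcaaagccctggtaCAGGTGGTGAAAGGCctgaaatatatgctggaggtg
Stfa2 and Stfa2l1 differed at 0 of these 60 bases, Stfa1 and Stfa3 at 9, and Stfa1 and Stfa2 at 12. Over the whole coding sequence Stfa2 and Stfa2l1 were 96.4% identical, and the other pairs among the 4 copies 73.1% to 81.6%. Stfa1 was 97.9% identical to BC100530, a neighbouring stefin A gene. Cstb was 52.1% to 57.5% identical to the 4 copies, and Cst3 and Cst7 were 52% identical to each other.

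**Figure D1:**
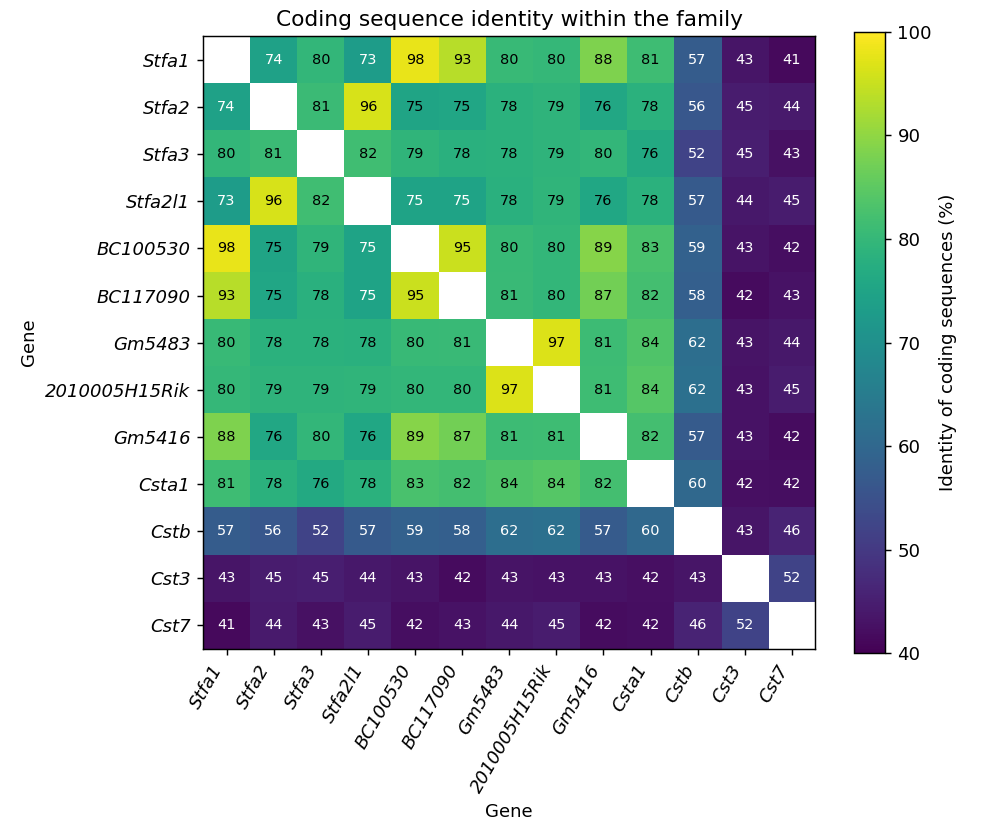
Identity of coding sequences between the 7 genes and 6 further genes of the stefin A cluster, in percent of aligned columns, from the longest protein-coding GENCODE vM21 transcript of each gene. The closest pairs are Stfa1 with BC100530, Gm5483 with 2010005H15Rik and Stfa2 with Stfa2l1, while Cst3 and Cst7 stand apart from all stefins.

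Reads that fall in identical stretches cannot be given to 1 copy. Of the 50-base windows of the transcript, 26.9% of Stfa1, 24.6% of Stfa2l1 and 15.9% of Stfa2 occurred unchanged in a transcript of another gene. Stfa1 shared them with BC100530 and BC117090, and Stfa2 and Stfa2l1 mainly with each other. At 100 bases 5.60% of the windows of Stfa1 were shared, all with BC100530, and none of the other 6 genes had a shared window. Stfa3, Cstb, Cst3 and Cst7 shared no window of either size. The read length and the treatment of reads with several matches are not stated in the labels, so the single values of Stfa1, Stfa2 and Stfa2l1 are uncertain.

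The values are RPKM, reads scaled to gene length and library size, as the authors deposited them. Whole-read steps among low genes gave a depth of 29941063 effective reads for replicate 1 and of 28793666 for replicate 2, and 3 reads in a gene of 1 kb, the limit that a count of 0 allows, were worth 0.10 RPKM in each. The labelled cell type was checked against marker genes. All 6 progenitor, 6 primary granule and 10 secondary granule and maturation genes reached 1 RPKM in both libraries, called detected here, as did 9 of 11 monocyte and macrophage genes. Of the 6 mast cell genes 3 were detected (Mcpt2, Cma1 and Mitf), of 5 basophil genes 5 (Mcpt8, Prss34, Cpa3, Fcer1a and Ms4a2), of 7 dendritic cell genes 2 (Itgax and Batf3), of 5 B cell genes 1 (Cd79b), and of 6 T and NK cell and 6 erythroid genes none. Of all genes 43.5% were detected. Marker genes of several myeloid cell types were thus present together. In such bulk RNA, fewer cells of a type and less RNA per cell cannot be told apart.

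All 7 stefin and cystatin genes were detected in both libraries, against 43.5% of all genes, and each stood at percentile 84.7 or higher of the genes above 0. Together they held 0.26% of the summed RPKM in replicate 1 and 0.323% in replicate 2. By mean deposited RPKM the order was Cst3, Stfa2l1, Stfa3, Cstb, Stfa1, Cst7 and Stfa2, with means of 529 ± 243, 451 ± 110, 297 ± 237, 281 ± 15.7, 131 ± 102, 53.1 ± 18.7 and 52.3 ± 15.1 RPKM (SD, n = 2 each). None of the 6 pairs of neighbours in this order differed by more than 2 SD on the log2(RPKM + 1) scale. The order was different in each library, with Stfa2l1 first in replicate 1 and Cst3 first in replicate 2. Values were also set to the length of the longest annotated coding transcript, a choice made after seeing the data. This takes all reads of a gene to come from that transcript, which was not tested, and it also changed the order. It was then Stfa1, Cst3, Stfa2l1, Cstb, Stfa2, Stfa3 and Cst7, with means of 672 ± 527, 470 ± 216, 450 ± 110, 380 ± 21.3, 349 ± 100, 305 ± 243 and 213 ± 74.9 RPKM (SD, n = 2 each). No result carries a p-value: with 2 libraries the smallest p that an exact sign-flip permutation test can give is 0.5.

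**Figure D2:**
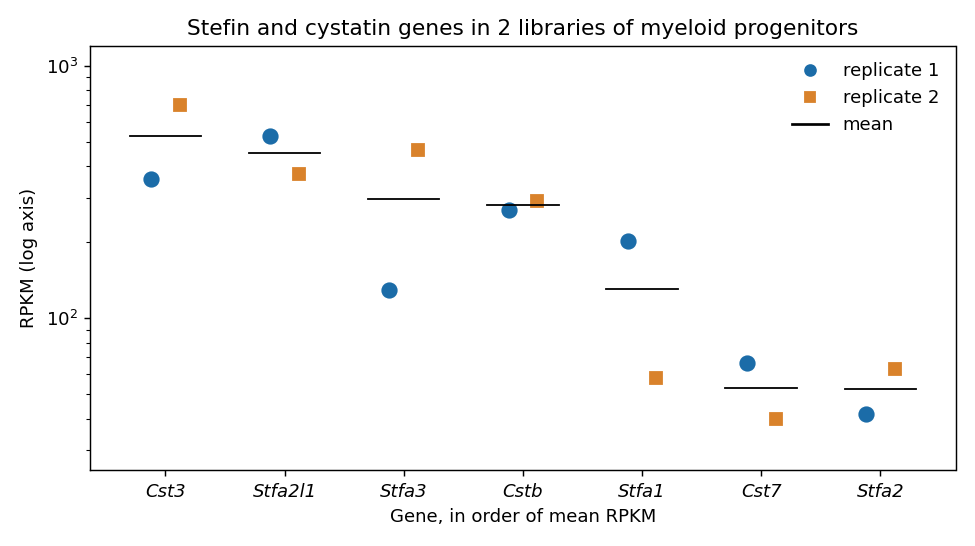
RPKM of the 7 genes in replicate 1 (circles) and replicate 2 (squares) on a log axis, with bars at the mean of 2 libraries. The values of Cstb lie close together at 270 and 292 RPKM, whereas those of Stfa3, at 129 and 464 RPKM, and of Stfa1, at 203 and 58.2 RPKM, lie far apart in opposite directions.

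Among the stefins, the stefin A copies were unequal and did not differ between libraries in 1 direction. Stfa2l1 stood at 528 RPKM in replicate 1 and 373 RPKM in replicate 2, and was the highest of the 4 copies in replicate 1. Stfa3 stood at 129 RPKM in replicate 1 and 464 RPKM in replicate 2, where it was the highest copy. By deposited RPKM the highest copy was thus a different one in each library. Stfa1 stood at 203 RPKM in replicate 1 and 58.2 RPKM in replicate 2. Stfa2 stood at 41.7 RPKM in replicate 1 and 63.0 RPKM in replicate 2. Thus Stfa1 and Stfa2l1 were lower in replicate 2, and Stfa2 and Stfa3 higher. Stfa2l1 made up 58.6% of the deposited RPKM of the 4 copies in replicate 1 and 38.9% in replicate 2, and Stfa3 14.3% and 48.4%. These ranks and shares rest on the deposited lengths. At transcript lengths Stfa1 was the highest copy in replicate 1, at 1045 RPKM, and Stfa3 in replicate 2, at 476 RPKM.

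Cstb encodes stefin B, a cytosolic inhibitor whose loss causes progressive myoclonus epilepsy in humans. It stood at 270 RPKM in replicate 1 and 292 RPKM in replicate 2, a 1.08-fold ratio with a 95% interval of 1.05 to 1.12 from counting error. This was the ratio nearest to 1 among the 7 genes. The 4 stefin A copies together exceeded Cstb by 1.73 ± 0.019 (SD, n = 2) on the log2(summed RPKM + 1) scale, beyond 2 SD. This sets 4 genes beside 1, so the number of genes adds to the difference of sums. With the median copy in place of the sum the difference was -0.56 ± 0.20, also beyond 2 SD and of the other sign. The difference of sums was 2.21 ± 0.32 at transcript lengths and 3.29 ± 0.23 with all stefin A cluster genes of the table counted, another choice made after seeing the data.

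Among the cystatins, Cst3 was the higher gene in both libraries. Cst3 stood at 357 RPKM in replicate 1 and 701 RPKM in replicate 2, ranks 239 and 126 of all genes. Cst7 stood at 66.3 RPKM in replicate 1 and 39.9 RPKM in replicate 2, ranks 1541 and 2423. The difference of Cst3 over Cst7 was 3.26 ± 1.20 (SD, n = 2) on the log2(RPKM + 1) scale, beyond 2 SD with the deposited values. It was 1.11 ± 1.20, within 2 SD, when the values were set to annotated transcript lengths, a choice made after seeing the data. Cstb minus Cst3 was -0.83 ± 0.61 with the deposited values and -0.23 ± 0.61 at transcript lengths, both within 2 SD. The 5 stefin genes together exceeded the 2 cystatin genes by 1.11 ± 0.50 on the same scale, beyond 2 SD. The sums are of 5 and of 2 genes, so the number of genes adds to this difference. Between medians the difference was -0.20 ± 0.20, within 2 SD. The median of the 2 cystatin genes is their mean, 212 RPKM in replicate 1 and 370 RPKM in replicate 2, set mostly by Cst3. The difference of sums was 1.67 ± 0.48 at transcript lengths and 2.44 ± 0.70 with all stefin A cluster genes counted. Without the highest gene of each group, Stfa2l1 and Cst3, it was 3.84 ± 0.82, which sets the other stefin genes beside Cst7 alone. The length behind the deposited value of Cst7 was 4.01 times its transcript.

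The ratios between the libraries were set beside those of all genes. Each ratio is replicate 2 over replicate 1 with 1 RPKM added to both, and a difference of at least 2-fold is given as a size, since each side is 1 library. Of 10896 genes with a mean of 1 RPKM or more, 5.3% were at least 2-fold higher in replicate 2, as was 1 of the 7 genes, Stfa3, with a log2 ratio of 1.83. In the other direction 0.734% of all genes were at least 2-fold lower, as was 1 of the 7, Stfa1, with a log2 ratio of -1.78. Cst3 lay just under the 2-fold line at 0.97, and over it at 1.02 once the median of all genes, -0.049, was subtracted. The remaining log2 ratios were 0.58 for Stfa2, 0.11 for Cstb, -0.50 for Stfa2l1 and -0.72 for Cst7. Counting error, taken from the smallest read numbers given further on, was small beside these, with 95% intervals of 3.39 to 3.79 for the 3.59-fold ratio of Stfa3 and 0.278 to 0.296 for the 0.287-fold ratio of Stfa1.

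**Figure D3:**
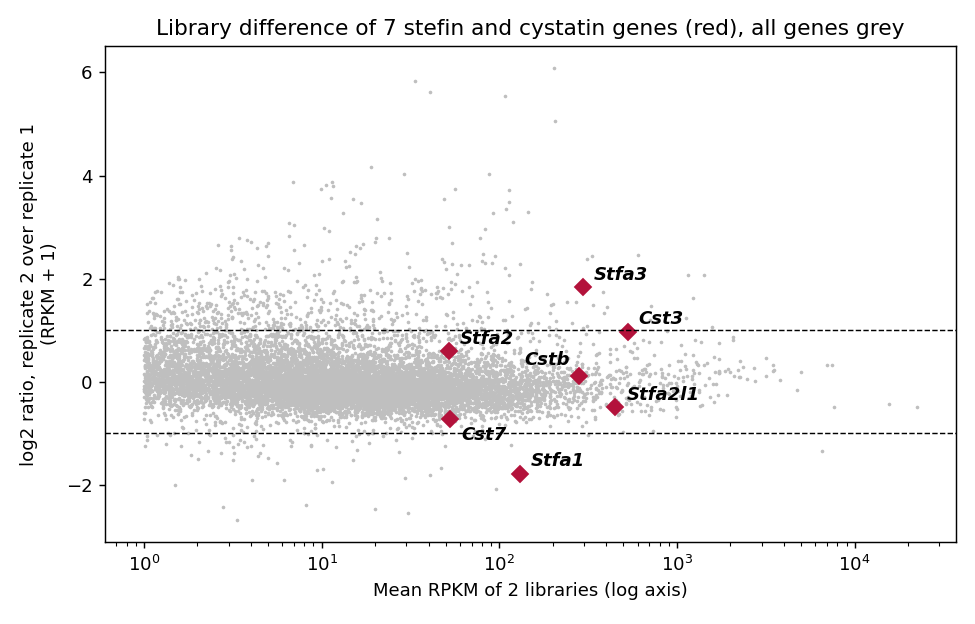
Log2 ratio of replicate 2 over replicate 1 (RPKM + 1) against mean RPKM on a log axis, for 10896 genes with a mean of 1 RPKM or more (grey) and the 7 stefin and cystatin genes (red diamonds); dashed lines mark 2-fold. Stfa3 lies above the upper line at 1.83, Stfa1 below the lower line at -1.78, and Cst3 at the upper line at 0.97.

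Marker genes of several cell types also differed between the libraries. With 2 libraries a gene can only be higher or lower, so a shared direction does not tie a gene to a list. All 10 monocyte and macrophage genes with a mean of 1 RPKM or more were higher in replicate 2, and none of the 11 was at 0. Of the 10, 7 were at least 2-fold higher, against 5.3% of all genes. The summed level of this list was 1321 RPKM in replicate 1 and 3580 RPKM in replicate 2. Among the stefin and cystatin genes, Cst3, Stfa3, Stfa2 and Cstb were higher in replicate 2, and Stfa1, Stfa2l1 and Cst7 lower. Of the 10 secondary granule and maturation genes 8 were higher in replicate 2. Camp, Mmp8, Mmp9 and Retnlg were at least 2-fold higher, against 5.3% of all genes. The median of that list was 591 RPKM in replicate 1 and 1055 RPKM in replicate 2. Its summed level went the other way, at 53339 and 44551 RPKM, through S100a8 and S100a9. Of the 6 primary granule genes 5 (Mpo, Elane, Prtn3, Ctsg and Ms4a3) were lower in replicate 2. None was 2-fold lower, against 0.734% of all genes. The median log2 ratio of all genes was -0.049, so slightly lower values in replicate 2 were common. The summed level of the primary granule genes was 5523 RPKM in replicate 1 and 4223 RPKM in replicate 2. All 5 basophil genes and all 5 mast cell genes with a mean of 1 RPKM or more (Mcpt2, Mcpt4, Cma1, Tpsb2 and Mitf) were higher in replicate 2, with summed levels of 1274 and 13.2 RPKM in replicate 1 and 2582 and 769 RPKM in replicate 2. The part of cell composition in the differences of the stefin and cystatin genes was not tested.

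Levels of different genes can be compared only as far as the lengths behind the RPKM are right, and for 3 of the 7 genes they were far above the annotated transcript. The lengths were recovered as the smallest that give whole reads in both libraries. They were 418 bp for Stfa2l1, 423 bp for Stfa3, 765 bp for Cst3 and 817 bp for Cstb, beside longest coding transcripts of 419, 412, 860 and 603 bp. For Stfa1, Stfa2 and Cst7 they were 3177, 3140 and 3951 bp, beside transcripts of 617, 471 and 986 bp, which is 5.15, 6.67 and 4.01 times as long. Among 340 genes with 1 annotated transcript and an unambiguous length, 2.94% were at least 4 times as long and 12.1% at least 2 times. The cut of 4 lies just under the 4.01 of Cst7. The cause of the long lengths was not tested.

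**Figure D4:**
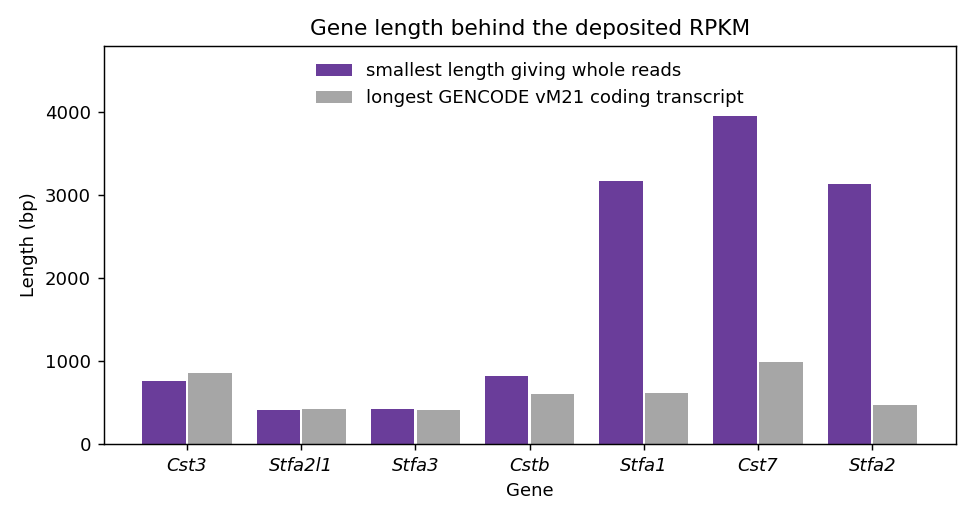
Smallest gene length that gives whole reads in both libraries (purple) and length of the longest protein-coding GENCODE vM21 transcript (grey), in bp, for each gene. The recovered length is 0.89 to 1.35 times the transcript for Cst3, Stfa2l1, Stfa3 and Cstb, and 4.01 to 6.67 times for Stfa1, Cst7 and Stfa2.

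At those lengths the genes held the following smallest whole read numbers. Stfa1 had 19296 reads in replicate 1 and 5323 in replicate 2, and Stfa2 3916 and 5693. Stfa3 had 1638 and 5651 reads, and Stfa2l1 6613 and 4490. Stfa1 thus had more reads than the other copies in replicate 1 although its RPKM was below that of Stfa2l1. Cst3 had 8176 and 15436 reads, Cst7 7846 and 4539, and Cstb 6594 and 6865. Set to the length of the longest coding transcript, Stfa1 would stand at 1045 RPKM in replicate 1 and 300 RPKM in replicate 2, Stfa2 at 278 and 420, and Cst7 at 266 and 160. These values take all reads of a gene to come from that transcript, which was not tested. The ratio of a gene between libraries does not depend on its length, so the ratios above are unchanged.

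The summed level of the 4 copies also depended on the lengths. With the deposited values it was 902 RPKM in replicate 1 and 958 RPKM in replicate 2, a 1.06-fold ratio. The copies held 31463 and 21157 reads, which is 0.699-fold per library size, and with transcript lengths the sums were 1982 and 1568 RPKM, a 0.791-fold ratio. The near equality of the deposited sums therefore did not hold on the other scales.

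Proximal promoters of the 4 copies are shown because the copies resemble one another there too while Stfa1 and Stfa3 differed between libraries in opposite directions. Each line gives the 120 bases before the RefSeq start of the gene (assembly GRCm38.p6), and capitals mark the letters TTTAAA, which resemble a TATA box. Of the 7 genes 6 had a sequence in the RefSeq table, Cstb not among them.
Stfa1, chr16:36277028-36277147, strand +: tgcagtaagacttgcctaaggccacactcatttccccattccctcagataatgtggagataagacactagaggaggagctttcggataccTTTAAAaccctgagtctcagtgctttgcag
Stfa3, chr16:36455393-36455512, strand -: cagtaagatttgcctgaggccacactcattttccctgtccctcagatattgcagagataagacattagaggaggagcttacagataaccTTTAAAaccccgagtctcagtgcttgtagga
Stfa2, chr16:36408364-36408483, strand -: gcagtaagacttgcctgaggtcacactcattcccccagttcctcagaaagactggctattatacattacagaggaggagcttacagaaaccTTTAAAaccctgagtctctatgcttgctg
Stfa2l1, chr16:36156691-36156810, strand +: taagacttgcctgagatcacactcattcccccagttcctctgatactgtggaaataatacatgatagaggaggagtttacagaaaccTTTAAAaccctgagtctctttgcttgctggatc
The box lay 29 to 33 bases before the start in the 4 copies. Over the 250 bases before the start, Stfa2 and Stfa2l1 were 89.4% identical and the other pairs of copies 80.2% to 83.1%, against 40% to 47.3% between a copy and Cst3 or Cst7. In those 250 bases, on either strand, TTTAAA occurred in the 4 copies and in Cst7, and in 12.1% of 32851 RefSeq promoters. GAGGAA, the core of PU.1 sites, occurred in the 4 copies and in Cst3, and in 23.3% of promoters. AGATAA, the form bound by factors of the GATA family, occurred in Stfa1 and Stfa3, and in 9.99% of promoters. TTGCNNAA, a C/EBP motif, occurred in Stfa1, and in 9.56% of promoters, and the AP-1 motif TGANTCA, found in 6.75% of promoters, in none of the 6. None of these motifs contains another, and a match describes the sequence, not a bound site.

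Other genes of the family were read from a list of 23 symbols, of which 19 were in the table. BC100530, the gene closest to Stfa1, had the highest deposited value of the listed family genes, at 1826 RPKM in replicate 1 and 1394 RPKM in replicate 2. Gm5483 stood at 190 and 135 RPKM, 2010005H15Rik at 41.3 and 77.7, BC117090 at 6.90 and 1.90, and Gm5416 at 2.10 and 1.42. These 5 genes of the stefin A cluster were the detected ones of the 19, against 43.5% of all genes. BC100530 held 61.5% of the deposited RPKM of the 10 cluster genes in replicate 1 and 54.3% in replicate 2. Its length could not be recovered without ambiguity, so its rank and share on another length are unknown. The recovered lengths of Gm5483 and Gm5416 were 7.15 and 12.7 times their transcripts, and at transcript length Gm5483 would stand at 1359 and 962 RPKM. BC117090, like Stfa1, was at least 2-fold lower in replicate 2, with a log2 ratio of -1.45, against 0.734% of all genes. It shares windows with both Stfa1 and BC100530, and the log2 ratio of BC100530 was -0.39. The part of shared reads in these ratios was not tested. Csta1 and Cst6 (cystatin E/M, a type 2 cystatin of skin) stood at 0.20 to 0.33 RPKM, and Fetub and Ahsg at 0.012 RPKM or less. The testis and epididymis cystatin genes Cst8, Cst9, Cst11, Cst12 and Cst13, the genes Cst10 and Cstl1, and the liver genes Hrg, Kng1 and Kng2 were listed at 0 in both libraries.

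Of 11 genes of cysteine cathepsins and legumain, the kind of protease that the family inhibits, 9 were detected, against 43.5% of all genes. All 9 were higher in replicate 2, beside a median log2 ratio of -0.049 over all genes with a mean of 1 RPKM or more. The lysosomal endopeptidase gene Ctss, which trims the invariant chain of MHC class II, stood at 177 RPKM in replicate 1 and 593 RPKM in replicate 2, and Ctsl at 62.6 and 243. The carboxypeptidase gene Ctsz stood at 441 and 455 RPKM, the broadly expressed Ctsb at 212 and 403, and the aminopeptidase gene Ctsh at 32.9 and 107. Ctsc, the target of cystatin F, stood at 58.3 and 98.4 RPKM. Its order was the reverse of that of Cst7, as was that of all 9 detected proteases. Lgmn (legumain, an asparaginyl endopeptidase that cystatins C and F also bind) stood at 11.6 and 25.4 RPKM, Ctsk at 9.07 and 32.0, Ctso at 6.77 and 12.4, and Ctsf and Ctsw under 1 RPKM. Of the 9, Ctsl, Ctsh, Ctss, Ctsk and Lgmn were at least 2-fold higher, against 5.3% of all genes.

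By deposited RPKM the summed levels of the 7 inhibitor genes and of the proteases were closer in replicate 2. The 7 inhibitor genes summed to 1595 RPKM in replicate 1 and 1991 RPKM in replicate 2, and the 11 protease genes to 1013 and 1970 RPKM. The log2 difference, inhibitors minus proteases, was 0.66 in replicate 1 and 0.015 in replicate 2, a mean of 0.33 ± 0.45 (SD, n = 2) within 2 SD. Between medians it was 2.07 ± 0.73, beyond 2 SD. With all stefin A cluster genes counted, BC100530 among them, it was 1.36 ± 0.70, within 2 SD. The near equality in replicate 2 is thus one of the deposited values of the 7 genes, and not of the wider family. This difference was not computed at transcript lengths, so whether the near equality holds there is not shown. Among other protease inhibitors, 12 genes were in the table and 9 of them were detected, against 43.5% of all genes. They ranged from Serpina3f at 1.47 and 1.22 RPKM to Serpinb1a, an inhibitor of neutrophil serine proteases, at 411 and 381 RPKM. Slpi, another inhibitor of neutrophil elastase, stood at 122 and 357 RPKM, and Wfdc17 at 18.9 and 137. The others were Serpina3g at 78.5 and 65.1 RPKM, Serpinb6a at 36.3 and 47.3, Timp2 at 11.3 and 27.6, Serpinb2 at 10.2 and 8.45, and Timp3 at 2.70 and 5.89. Of the 11 with a mean of 1 RPKM or more, Slpi, Wfdc17, Timp1, Timp2 and Spink2 were at least 2-fold higher in replicate 2, against 5.3% of all genes. Timp1 and Spink2 were under 1 RPKM in replicate 1, at 0.478 and 0.924 RPKM.

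**Figure D5:**
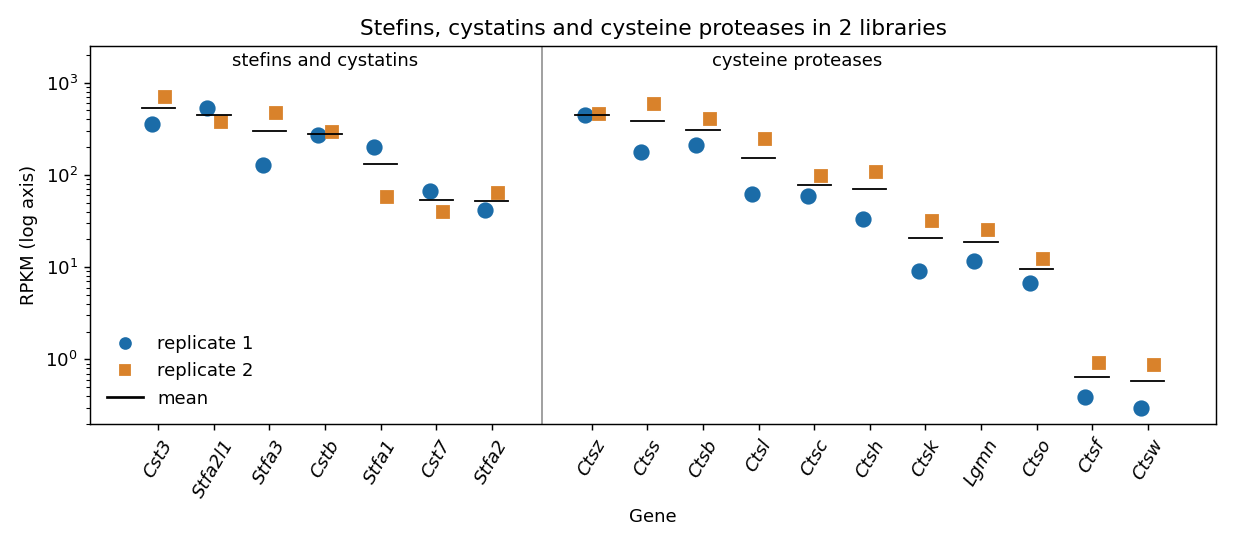
RPKM on a log axis of the 7 stefin and cystatin genes (left) and of 11 cysteine protease genes (right) in replicate 1 (circles) and replicate 2 (squares), with bars at the mean of 2 libraries. All 11 proteases are higher in replicate 2, whereas 4 of the 7 inhibitors are higher there and 3 lower.

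The 2 genes nearest to each of the 7 in level are given as a description of 2 values per gene, with the distance on the log2(RPKM + 1) scale. Nearest to Cstb were Fkbp8 and Sidt2, at distances of 0.036 and 0.046. Nearest to Cst3 were Cd52 and Neat1, at 0.20 and 0.25, and nearest to Cst7 Nop58 and Snord47, at 0.050 and 0.074. Among the copies, Stfa2 lay nearest to Cldn25 and Stat6, at 0.031 and 0.047, and Stfa2l1 to Pcbp1 and Cox6a1, at 0.088 and 0.11. Stfa3 lay nearest to Gpnmb and Slpi, at 0.21 and 0.39, and Stfa1 to Phgdh and Abcf2, at 0.39 and 0.68. The distances of Stfa1 and Stfa3 were thus larger than those of Cstb, Cst7, Stfa2 and Stfa2l1.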

How the data were processed

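The authors deposited RPKM values, 1 column for each of 2 libraries. The submitters' processing notes name Trimmomatic 0.32, TopHat2, HTSeq, edgeR and the build mm9, with settings and annotation not given in the sources used. Columns were assigned by name. Of 24015 rows, 27 named as dates were left out. The size ratio, replicate 2 over replicate 1, was 0.962, shared by 474 genes with equal reads, and the scale came from 46 of 1151 genes with 1 GENCODE vM21 transcript. Effective sizes may include a normalisation factor. Lengths from 100 to 12000 bp were tried for whole reads (tolerance 0.001 reads plus 6e-08 of the number), and this recovery was tested on simulated data. Intervals are exact binomial (95%), cover counting error only and need the smallest read numbers. Sequences came from GENCODE vM21 and RefSeq GRCm38.p6, builds other than the authors', and were matched by symbol. Named genes were all 7, all listed proteases, other family genes at 1 RPKM in either library, other inhibitors detected in both, the 2 nearest genes, and any gene of a count of 5 or fewer; Csta1, Cst6, Fetub, Ahsg, genes listed at 0, Timp1, Spink2 and the marker genes were named after their values were seen. The genes and lists were chosen with earlier results of these data known. A contrast was beyond the spread at over 2 SD with 1 sign. Alternatives were another pseudocount, filter, scaling, summary, length and each library alone. Python 3.11.15, pandas 2.3.3, scipy 1.17.1 and Biopython 1.88 were used.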

Additional observations from a re-analysis of the deposited data

How the results depend on the processing

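With 2 libraries, leaving out 1 cannot move a mean beyond its SD, so that check says nothing of the stability of levels. Medians in place of sums give no extra weight to the larger group, and in groups of more than 2 genes none to the highest gene. For the 2 cystatin genes the median is their mean, set mostly by Cst3. With medians the sign turned for stefin A copies minus Cstb, at -0.56, and stefins minus cystatins, at -0.20. The median also put inhibitors minus proteases past 2 SD, at 2.07. With GENCODE transcript lengths, added after the data were seen, Cst3 minus Cst7 fell within 2 SD, at 1.11, and the means of Stfa1, Stfa2, Cst7 and Cstb were 672, 349, 213 and 380 RPKM. Cst3 passed 2-fold, at 1.02, with the median of all genes subtracted. With 1 library alone, Cstb minus Cst3 ranged from -1.26 to -0.40 and inhibitors minus proteases from 0.015 to 0.66. Genes at least 2-fold higher in replicate 2 numbered 344 and those lower 42 with a minimum of 5 RPKM, against 578 and 80. With a pseudocount of 0.1 those higher numbered 803 and those lower 131. At a limit of 5 RPKM 3 other family genes (BC100530, Gm5483 and 2010005H15Rik) were detected, against 5. Single genes have no group of their own in a contrast, so no median or reduced group was computed for them. No paired analysis was possible because the labels give 1 group. With 2 libraries and no counts deposited, precision rests on the spread between them.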
